A study of Ovis aries with 60 samples.

Results

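Interferon-stimulated genes were followed in semen RNA of F2 Polypay rams, a breed of sheep, by means of 8 genes chosen by name: MX1, MX2, ISG15, IFI6, RSAD2, IFIT2, IFIT3 and IRF7. All 8 had a row among the 28525 genes counted, and all 8 were among the 13577 genes kept for testing, which had 15 or more counts in over 10 libraries. The RNA came from 20 rams, 10 whose F0 grandsire received rumen-protected methionine from weaning to puberty (methionine line) and 10 whose F0 grandsire, stated by the study to be a twin of a treated ram, received the control diet alone (control line). Each line descended from 5 F0 rams with 2 F2 rams each, 1 library was made per F2 ram, and neither the F1 nor the F2 rams received the supplement. The semen was collected by electroejaculation, kept in RNAlater and exposed to a buffer that lyses somatic cells before the RNA was extracted, and the labels call the product sperm. Rams are named here by the titles of their libraries, which end in T for the methionine line and C for the control line.

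Interferons are proteins that cells release on sensing viral nucleic acids. Type I and type III interferons bind receptors on the cell surface and act through JAK kinases and transcription factors such as STAT2 and IRF9 to switch on the interferon-stimulated genes. Leukocytes and epithelial cells both carry this system, and mature sperm are largely silent in transcription, so RNA in an ejaculate can derive from sperm, from leukocytes and from epithelium of the reproductive tract. Among the genes followed here, MX1 and MX2 encode dynamin-like GTPases that block viral replication, ISG15 a ubiquitin-like protein that is joined to other proteins, IFI6 a small membrane protein that opposes apoptosis, and RSAD2 (viperin) an enzyme that makes a chain-terminating nucleotide. IFIT2 and IFIT3 encode tetratricopeptide-repeat proteins that act with IFIT1 on viral RNA, and IRF7 encodes the transcription factor that amplifies type I interferon production.

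The libraries differed widely in makeup and in the number of counts assigned to genes. The paper reports a much narrower range of reads sequenced per RNA library, so the share of reads assigned to genes was uneven. Their totals ran from 805831 counts in ram SpermRNA413C to 13137757 in ram SpermRNA468C, with a median of 3436936, and no pair of libraries was identical. TMM factors, which rescale library sizes so that most genes do not move, ran from 0.371 to 2.38, and levels are given as CPM, the counts divided by the rescaled library size on the usual scale. The summed CPM of 8 measured markers of spermatids (such as PRM1 and TNP1) was 90.4 to 6103 in the control line and 187.7 to 4988 in the methionine line. That of 9 squamous epithelium markers (such as KRT13 and KRT4) was 142.5 to 73860 and 241.3 to 39560. It came mostly from KRT13 (up to 57940 CPM) and KRT4 (up to 20490 CPM), while KRT5 was at most 8.35 CPM. The summed CPM of 10 pan-leukocyte markers (such as PTPRC) was 47.98 to 6103 and 67.88 to 1418. The lowest of these sums were above 0, so every library labelled sperm held some leukocyte and epithelial transcripts, in amounts that varied between rams; among the leukocyte markers CYBB was at 0 in 1 library. Rams SpermRNA485C (control line) and SpermRNA382T (methionine line) had the lowest leukocyte, neutrophil and epithelial scores and the highest spermatid scores of their lines.

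The MX genes were among the most alike of the 8. The MX1 level was 4.36 to 1345 CPM in the control line, with a median of 237, and 3.92 to 532 CPM in the methionine line, with a median of 161. The MX2 level was 14.5 to 862 CPM in the control line, with a median of 164, and 18.4 to 225 CPM in the methionine line, with a median of 118. Ram SpermRNA468C was highest and rams SpermRNA400C and SpermRNA323T followed for MX1, and the lowest rams for both genes were SpermRNA382T and SpermRNA485C. Over the 20 rams MX1 and MX2 had a Spearman rho of 0.950 and a Pearson r of 0.964 on log2(CPM + 1) (permutation test, two-sided, adjusted p = 7.43e-05 and 3.25e-05). IFIT2 and IFIT3 were nearly as alike (rho = 0.949). Within the lines the IFIT pair had the higher rho, at 0.952 against 0.903 in the methionine line and 0.939 against 0.927 in the control line. No other gene among the 13576 compared with MX1 had a higher rho than MX2. MX1 and MX2 are neighbours on 1 chromosome in the RefSeq annotation of the assembly ARS-UI_Ramb_v3.0, and reads that could stem from either may have been shared or lost in counting.

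ISG15 had the widest spread on the log2 scale. Its level was 1.38 to 1101 CPM in the control line, with a median of 101, and 0 to 1228 CPM in the methionine line, with a median of 79.1. The 2 highest rams, SpermRNA426T (1228 CPM, 1566 counts) and SpermRNA350C (1101 CPM, 2819 counts), came from different lines and stood above the third, at 401 CPM. In ram SpermRNA382T no ISG15 read was counted, which allows up to 1.18 CPM at the rescaled size of that library, for counting error only. The SD of ISG15 over the 20 rams was 2.55 on the log2 scale, and 99.6% of the genes tested had a lower SD. The SD of MX1 was 2.07 (97.3% of genes lower), that of IFIT2 1.83 (94.4% lower), and the other 5 genes had SDs from 1.43 to 1.55 (85.1% to 88.6% lower).

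The other effectors were spread over a similar range of folds. IFI6 was at 2.07 to 168 CPM in the control line (median 24.6) and at 3.92 to 121 CPM in the methionine line (median 23.3). RSAD2, which had the fewest counts (0 to 173), was at 0.689 to 67.6 CPM in the control line (median 7.17) and at 0 to 39.2 CPM in the methionine line (median 7.72). The highest RSAD2 levels were those of rams SpermRNA350C and SpermRNA426T, the same rams that were highest for ISG15, and ram SpermRNA382T again had no read. IFIT2 was at 6.89 to 537 CPM in the control line (median 49.5) and at 4.32 to 316 CPM in the methionine line (median 35.9). IFIT3 was at 5.29 to 241 CPM in the control line (median 29.3) and at 4.32 to 73.6 CPM in the methionine line (median 28.2). Ram SpermRNA350C was highest for both IFIT genes, whereas for IRF7, at 64.4 CPM, it was below the median of its line. The transcription factor IRF7 was at 7.35 to 336 CPM in the control line (median 95.8) and at 9.81 to 307 CPM in the methionine line (median 92.5), with rams SpermRNA400C and SpermRNA323T highest. For every one of the 8 genes the ranges of the lines overlapped.

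**Figure D1:**
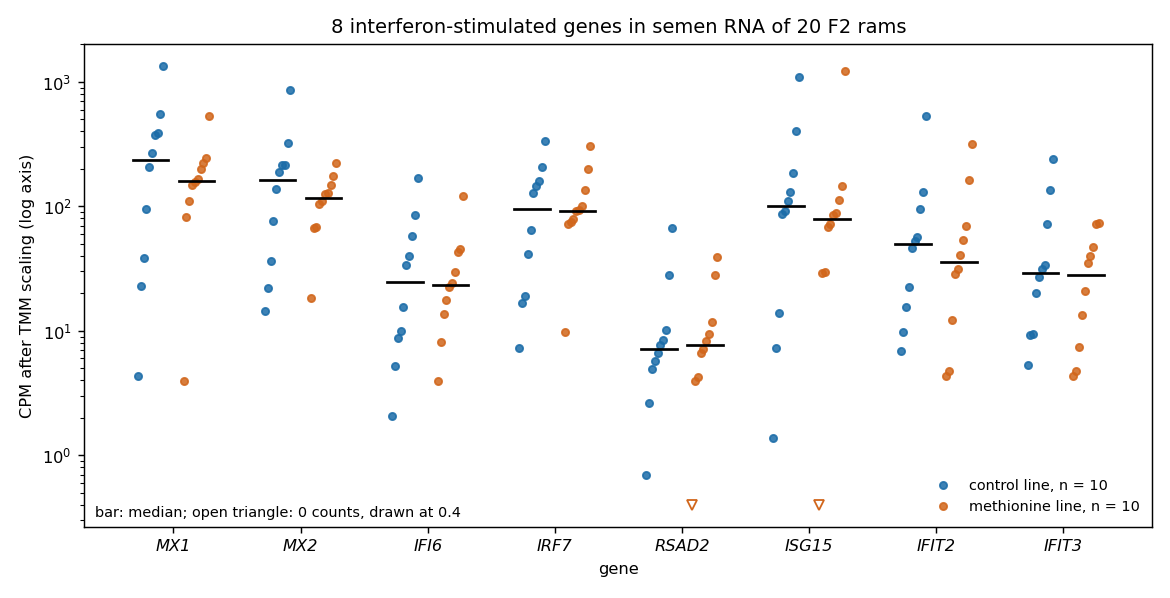
Level of each gene in each of the 20 F2 rams, in CPM after TMM scaling on a log axis; each point is 1 ram (10 per line), each bar the median of a line, and open triangles mark the ram with 0 counts, drawn at 0.4. The lines overlap for all 8 genes, and single rams reach 1345 CPM for MX1 and 1228 CPM for ISG15.

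The question put to these data by the design is whether the diet of the F0 grandsire left a difference in the F2 rams. None of the 8 genes differed between the lines in edgeR's quasi-likelihood test, with adjustment over all 13577 genes, where 0 genes passed (0% called), so that the absence of calls was not particular to these 8 genes. At an unadjusted p under 0.05 there were 104 genes (0.766% called) and none of the 8, and DESeq2 called 0 genes, with 174 at an unadjusted p under 0.05. MX2 had the smallest unadjusted p (0.177), at a log2 difference, methionine minus control, of −0.84 (SE 0.605, 95% interval −2.08 to 0.41). MX1 was at −0.82 (interval −2.34 to 0.70), IFIT3 at −0.88 (−2.23 to 0.46) and IFIT2 at −0.43 (−2.02 to 1.17). IFI6 was at −0.37 (−1.70 to 0.96), RSAD2 at −0.28 (−1.63 to 1.07), ISG15 at −0.20 (−2.18 to 1.78) and IRF7 at 0.05 (−1.19 to 1.28). DESeq2 put ISG15 at −1.69. All adjusted p rounded to 1. The intervals leave room for differences of more than 2-fold in at least 1 direction for every gene, and on simulated counts the same test recovered 115 of 200 genes changed 4-fold (57.5%). Those 200 were drawn at random from all genes tested. The share was not computed for the 8 genes, whose SDs were above those of 85.1% to 99.6% of genes.

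The fitted differences of 7 of the 8 genes were negative, with a median of −0.40, beside 57.2% of all genes tested and a median of −0.05, but with library size alone in place of TMM those of ISG15, IFI6 and RSAD2 were positive (0.21, 0.14 and 0.010). Because the 8 genes moved together across rams, these are not 7 separate observations. They also rested on few rams. Without ram SpermRNA350C the differences of ISG15, RSAD2 and IFIT2 became 0.70, 0.47 and 0.58, and without ram SpermRNA468C that of IFI6 became 0.21. Rams of 1 F0 grandsire were not closer than other rams of their line for 5 of the 8 genes. For ISG15 the median gap within the 10 pairs of a shared grandsire was 2.91 on the log2 scale, against 2.28 over 80 pairs of different grandsires, and for IFIT2 it was 2.95 against 2.03. For MX1, MX2 and IRF7 the gap was smaller within pairs, at 1.08 against 1.62, 1.06 against 1.21 and 1.01 against 1.36. These gaps were not tested.

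Across the 20 rams the 8 genes rose and fell together, but not all to the same degree. All 28 pairs had a positive rho, with a median of 0.733, and 25 passed a permutation test with adjustment over the 52 relations computed, which are the 28 pairs and the 24 of each gene with 3 composition scores. The permutations treated the 20 rams as independent, although 2 rams descend from each F0 grandsire. By the paper 1 F1 ram was bred per F0 ram, so these 2 also share a sire. The share of all gene pairs that would pass was not computed. Many genes moved with library makeup, with 8156 of the 13577 called in either direction with spermatid markers. The count of pairs thus does not set the 8 genes apart from others. The highest rho values were those of MX1 with MX2 (0.950), IFIT2 with IFIT3 (0.949; r = 0.946) and MX2 with IFI6 (0.907; r = 0.924). The lowest were those of IRF7 with IFIT2 (0.227, adjusted p = 0.343; r = 0.317, adjusted p = 0.175) and IRF7 with IFIT3 (0.293, adjusted p = 0.218; r = 0.359, adjusted p = 0.127), and IFI6 with IFIT2 was at 0.429 (adjusted p = 0.0689; r = 0.445, adjusted p = 0.0534). The order thus ran from IRF7, IFI6 and the MX genes at one end to IFIT2 and IFIT3 at the other, with RSAD2 and ISG15 between them. Within the control line the 28 pairs had a median rho of 0.733, and 15 passed by rho and 20 by r. Within the methionine line the median was 0.667, and 7 passed by rho and 20 by r, with 10 rams in each. With the 2 rams farthest from the median of the first gene left out, 21 of the 28 pairs passed, and the rho of MX1 with MX2 was 0.934 and that of IFIT2 with IFIT3 0.930.

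**Figure D2:**
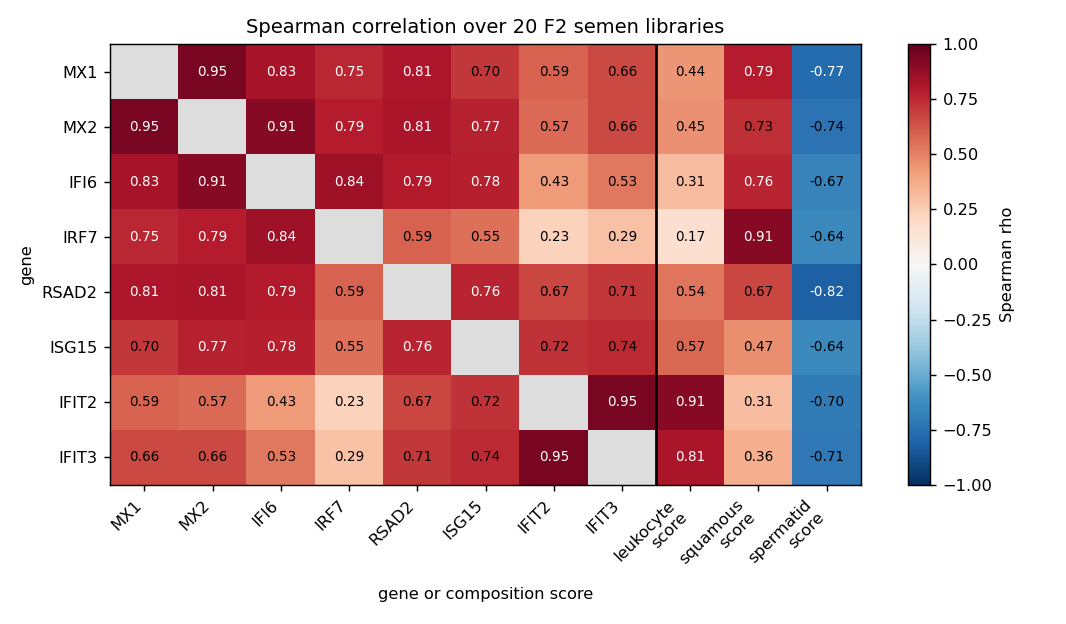
Spearman rho between the 8 genes (left of the line) and of each gene with 3 composition scores (right of the line), over 20 F2 semen libraries; red is positive, blue negative and grey the gene with itself. IFIT2 and IFIT3 are dark red with the leukocyte score and pale with the squamous score, and IRF7, with 0.91 for the squamous and 0.17 for the leukocyte score, is the reverse.

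The 2 ends of this order went with different marker genes. A composition score is the mean log2(CPM + 1) over the measured markers of a cell type, none of which is among the 8 genes. In bulk RNA a lower score can come from fewer cells of a type or from less RNA per cell, which cannot be told apart. The leukocyte score and the squamous score were themselves only weakly related by rank over the rams (rho = 0.189). Rams SpermRNA382T and SpermRNA485C were lowest on both, and the Pearson r of the scores was not computed. IFIT2 had a rho of 0.910 with the leukocyte score (r = 0.918) and IRF7 a rho of 0.171 (r = 0.316). With the squamous score the order was turned, with 0.908 for IRF7 (r = 0.906) and 0.311 for IFIT2 (r = 0.419). The adjusted p was 7.43e-05 by rho and 3.25e-05 by r for IFIT2 with leukocytes and IRF7 with squamous epithelium, both from a p of 1e-05, the smallest that 100000 permutations can give, and 0.470 and 0.191 by rho, with 0.175 and 0.071 by r, for the other two. Within the control line the values for IFIT2 with leukocytes and IRF7 with squamous epithelium were 0.891 and 0.915, and within the methionine line 0.879 and 0.879. Without the 2 rams farthest on each score they were 0.882 and 0.874. With library size alone in place of TMM they were 0.887 and 0.639, and 33 of the 52 relations passed instead of 43. The rho of MX1 and MX2 with the squamous score was then 0.432 and 0.379, against 0.785 and 0.728 with TMM, and neither passed.

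**Figure D3:**
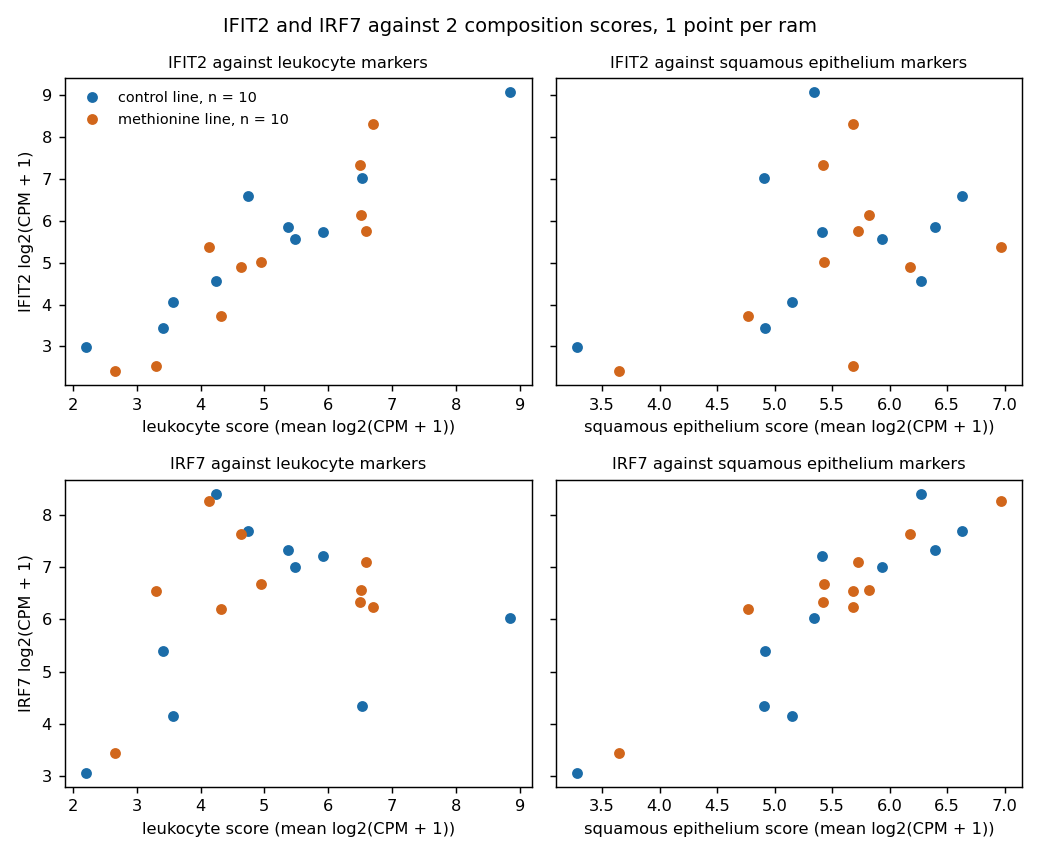
IFIT2 (top) and IRF7 (bottom), as log2(CPM + 1), against the leukocyte score (left) and the squamous epithelium score (right); each point is 1 of 20 rams. IFIT2 climbs with the leukocyte score (rho = 0.910) and IRF7 with the squamous score (rho = 0.908), and the other 2 panels show no such order apart from the low points of rams SpermRNA382T and SpermRNA485C.

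In edgeR fits with 1 score at a time, 4 of the 8 genes rose with the leukocyte score at an adjusted p of at most 0.05, where 11.2% of all genes did. These were ISG15, at 2.04 (SE 0.421) on the log2 scale per SD of the score (adjusted p = 0.000912), IFIT2 at 1.74 (SE 0.201, adjusted p = 3.95e-07), IFIT3 at 1.22 (SE 0.235, adjusted p = 0.000452) and RSAD2 at 0.94 (SE 0.262, adjusted p = 0.0093). The call of RSAD2 rested on ram SpermRNA350C, without which it was at 0.65 (adjusted p = 0.205). The slopes of MX1 and MX2 were both 0.44 (intervals −0.55 to 1.44 and −0.36 to 1.25), that of IFI6 was 0.14 and that of IRF7 0.06 (interval −0.78 to 0.89), and the last 2 were −0.019 and −0.023 with library size alone. With a score from summed CPM the same 4 genes passed, but the slopes of MX1 and MX2 were 1.09 (adjusted p = 0.13) and 0.91 (adjusted p = 0.0847), that of IFI6 was 0.61 and that of IRF7 0.50. The summed score called 4617 of all genes in either direction, against 3495 with the main score. By Pearson r, 6 of the 8 genes passed the permutation test with the leukocyte score, MX1 (0.574, adjusted p = 0.00996) and MX2 (0.532, adjusted p = 0.0179) among them, against 4 by rho. Scores of neutrophil markers (8 measured, such as CSF3R and S100A8) and of macrophage markers (8 measured, such as CD14) called the same 4 genes, where 10.8% of all genes were called up with either score, and neither score can be told apart from the leukocyte score (rho of 0.95 and 0.896 with it). With lymphocyte markers (such as CD3E and MS4A1), whose summed CPM was at most 190.3 in any ram, none of the 8 was called, where 0.0516% of all genes were.

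With the squamous score, 5 of the 8 genes rose, where 29.3% of all genes did. MX1 rose by 1.92 per SD (SE 0.285, adjusted p = 8.18e-06), IFI6 by 1.47 (SE 0.211, adjusted p = 6.02e-06), IRF7 by 1.39 (SE 0.199, adjusted p = 5.93e-06), MX2 by 1.28 (SE 0.224, adjusted p = 4.22e-05) and RSAD2 by 0.98 (SE 0.379, adjusted p = 0.0298). ISG15 was at 0.77 (interval −1.26 to 2.80), IFIT3 at 0.65 (−0.18 to 1.49) and IFIT2 at 0.55 (−0.81 to 1.92). The call of RSAD2 was lost without any 1 of rams SpermRNA323T, SpermRNA382T, SpermRNA468C or SpermRNA485C (adjusted p = 0.0513, 0.102, 0.0565 and 0.14), and IFIT3 passed without ram SpermRNA350C (0.78, adjusted p = 0.0243). The place of ISG15 depended on the method: with a score taken from summed CPM, 6 of the 8 genes passed and ISG15 was at 2.24 (adjusted p = 0.0152), and its correlation with the squamous score passed in the permutation test by rho (0.468, adjusted p = 0.0463) and by r (0.647, adjusted p = 0.00345). The summed score called 8646 of all genes in either direction, against 7626 with the main score. A score of simple epithelium markers (such as KRT19 and ELF3), which followed the squamous score (rho = 0.922), called the same 5 genes, where 30.4% of all genes were called up. In that list KRT8 and EPCAM were low, at no more than 11.3 and 24.4 CPM. Which of the epithelia the transcripts go with cannot be told apart here.

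**Figure D4:**
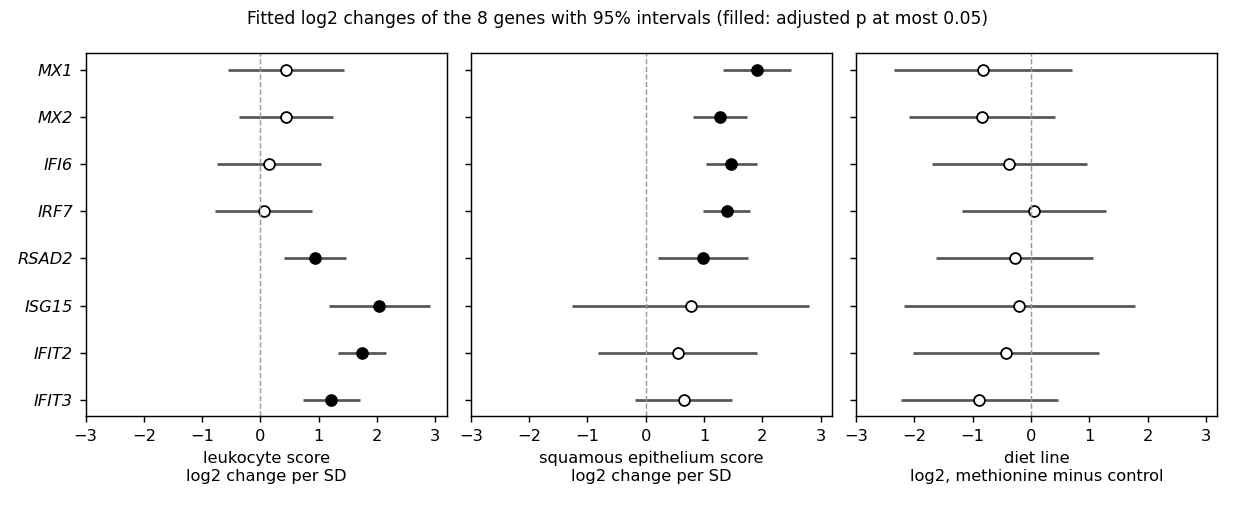
Fitted log2 change of each gene per SD of the leukocyte score (left), per SD of the squamous epithelium score (middle) and between diet lines (right, methionine minus control), from edgeR's quasi-likelihood fits over 20 rams; bars are 95% intervals and filled points have an adjusted p of at most 0.05. RSAD2 is filled in both score panels, the MX genes, IFI6 and IRF7 in the squamous panel alone, ISG15, IFIT2 and IFIT3 in the leukocyte panel alone, and no gene in the diet panel.

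The scaling of the libraries bears on these calls. The log2 TMM factor had a rho of −0.698 with the squamous score (r = −0.650) and of 0.642 with the spermatid score (r = 0.697). Within the lines the rho with the squamous score was −0.709 and −0.758, and without the 2 most extreme factors −0.633. Each score is computed from CPM already divided by this factor, which builds in part of a negative relation. These values are therefore given as a description, and no test is drawn from them. With library size alone in place of TMM, 187 genes in all passed in either direction with the squamous score, against 7626, and IRF7 was the only 1 of the 8 (0.86, adjusted p = 0.031), with MX1 at 0.73 (adjusted p = 0.3), IFI6 at 0.80 (adjusted p = 0.134), MX2 at 0.45 (adjusted p = 0.379) and RSAD2 at 0.30 (adjusted p = 0.817). With the leukocyte score IFIT2, IFIT3 and ISG15 passed under library size alone as well, and RSAD2 did not (0.77, adjusted p = 0.061). Over all genes 1004 passed there in either direction, against 3495 with TMM. DESeq2's size factors called 4 and 5 of the 8 genes, as TMM did, and 3420 and 7444 of all genes in either direction.

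Ratios of 2 genes within 1 library need no scaling factor. They were taken after the values above had been seen and are given as a description: IFIT2, the common denominator, itself follows the leukocyte score that is subtracted on the other axis, so part of any rise is built in and no test was drawn from them. In the 2 rams with the most leukocyte over squamous signal, SpermRNA350C and SpermRNA366C, there were 0.121 and 0.150 IRF7 counts per IFIT2 count, each count raised by 1. In the 2 rams at the other extreme, SpermRNA323T and SpermRNA340T, there were 7.56 and 18.6. For MX1 over IFIT2 the same 4 rams were at 0.724, 0.733, 13.1 and 33.5. For ISG15 over IFIT2 they were at 2.05, 1.01, 3.61 and 6.07, while the highest ratios, 7.57 in both SpermRNA449C and SpermRNA426T, came from rams whose leukocyte score was above their squamous score. Between these rams the counts of IRF7 and MX1 thus shifted against those of IFIT2 whatever the scaling.

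**Figure D5:**
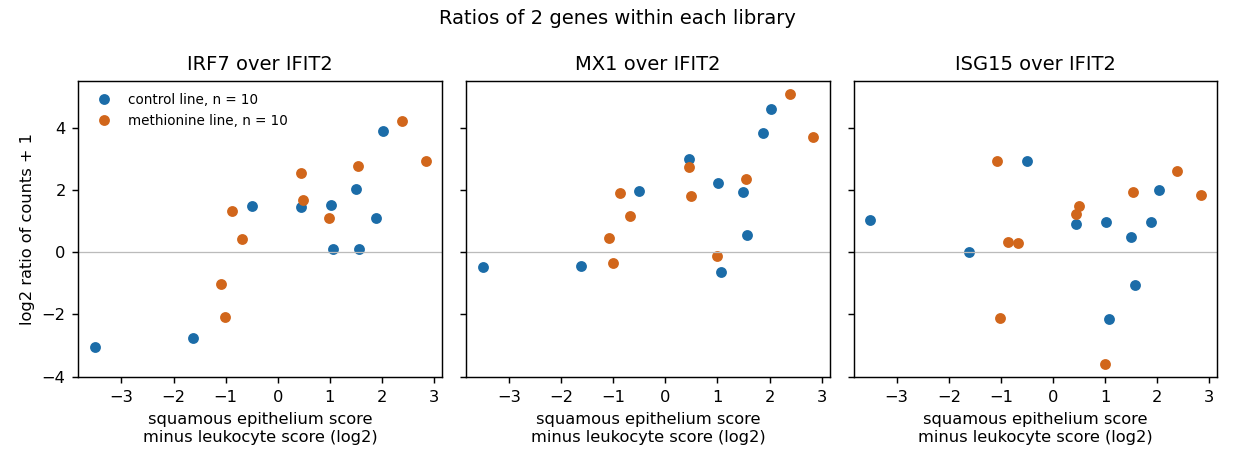
Log2 ratio of the counts of IRF7, MX1 and ISG15 to those of IFIT2 within each library (1 added to each count), against the squamous epithelium score minus the leukocyte score; each point is 1 of 20 rams. The IRF7 ratio runs from 0.121 in SpermRNA350C at the left to 18.6 in SpermRNA340T near the right, and the highest ISG15 ratios, both 7.57, lie left of 0; IFIT2 follows the leukocyte score, so part of a rise is built into the axes.

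All 8 genes fell as the spermatid score rose, where 34% of all genes did. The slopes ran from −0.97 per SD for IRF7 (adjusted p = 0.00411) to −1.70 for ISG15 (adjusted p = 0.0223), and rho from −0.641 for IRF7 to −0.817 for RSAD2. The call of ISG15 was lost without any 1 of rams SpermRNA350C, SpermRNA382T, SpermRNA475C or SpermRNA485C (adjusted p = 0.0973, 0.0545, 0.0538 and 0.0648). Without both SpermRNA382T and SpermRNA485C, 6 of the 8 passed, with ISG15 at −0.93 (adjusted p = 0.156) and IRF7 at −0.57 (adjusted p = 0.0617). Of all genes 4827 then passed in either direction, against 8156 with every ram. With library size alone 3 of the 8 passed, MX1 at −0.91, MX2 at −0.59 and IFI6 at −0.65. Over all genes the calls in either direction then rose to 9070, from 8156 with TMM, so the 3 do not stand out. The spermatid score was itself lower where the squamous score (rho = −0.761) and the leukocyte score (rho = −0.573) were higher. When the 3 scores and diet line stood in 1 fit, none of the 8 genes was called lower with the spermatid score (0.0221% of all genes were). In that fit IFIT2 (1.39, adjusted p = 0.000155), ISG15 (2.33, adjusted p = 0.000394) and IFIT3 (0.81, adjusted p = 0.0237) rose with the leukocyte score, where 7.34% of all genes did. IRF7 (1.73, adjusted p = 0.0108) and MX1 (1.99, adjusted p = 0.0108) rose with the squamous score, where 5.49% did. IFI6 (1.29, adjusted p = 0.0552), MX2 (0.90, adjusted p = 0.173) and RSAD2 (0.95 with squamous, adjusted p = 0.337; 0.94 with leukocytes, adjusted p = 0.0578) did not pass there.

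The leukocyte and squamous scores together accounted for 69.2% (RSAD2) to 88.3% (MX1) of the variance of the 8 genes in linear fits on log2(CPM + 1). For IFIT2 the leukocyte score alone gave 84.3% and both 85.5%. For IRF7 the squamous score alone gave 82.2%, and both gave 82.2%. ISG15 and RSAD2 were in between, with 63.3% and 44.9% from leukocytes alone, 41.9% and 48.2% from squamous epithelium alone, and 79% and 69.2% from both. These shares hold for TMM scaling: with library size alone the r with the squamous score was 0.487 for ISG15 against 0.647, 0.494 for RSAD2 against 0.695, 0.631 for MX1 against 0.897 and 0.747 for IRF7 against 0.906, whereas that of IFIT2 with the leukocyte score was 0.913 against 0.918. The squamous shares also rested in part on rams SpermRNA382T and SpermRNA485C. Without these 2 rams, under TMM, the r with the squamous score was 0.222 for ISG15, 0.411 for RSAD2, 0.753 for MX1 and 0.814 for IRF7. With the leukocyte score it was then 0.708 for ISG15, 0.506 for RSAD2 and 0.897 for IFIT2. What the scores left differed by gene and ram. ISG15 in ram SpermRNA426T lay 2.82 above its fitted log2 level and RSAD2 in the same ram 1.62 above, while in ram SpermRNA468C IFIT3 lay 2.18, MX2 1.76 and MX1 1.35 above. Ram SpermRNA413C, the library with the fewest counts, lay lowest for IRF7 (−1.63), MX2 (−1.49) and MX1 (−1.33). ISG15 lay lowest in ram SpermRNA372T (−1.80) and IFI6 in ram SpermRNA409C (−1.78), and the residuals of IFIT2 stayed between −1.15 and 1.31. Whether these departures go with interferon was not tested.

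The genes most like each member in their pattern over the 20 rams, by Spearman rho among the genes passing the filter and outside the 8, differed between the ends of the order. Apart from each other, IFIT2 and IFIT3 were both nearest to IFIT1, their neighbour and partner (rho = 0.946 and 0.970), and then to TMEM154, LOC101107908 and, for IFIT2, PNP (0.928) and CYTIP (0.925), the latter a regulator of leukocyte adhesion. IFIT1 to IFIT3 are alike in sequence and lie next to each other in the RefSeq annotation, and the part of shared reads in these values was not tested. IRF7 was nearest to SPINT2 (0.965), a serine protease inhibitor of epithelia, LSR (0.961), a protein of tricellular junctions, EPHA2 (0.959), CLIC3 and PALLD. MX2 was nearest to EFHD2 (0.965), ZBP1 (0.950), LOC101112122, PML (0.940) and RIPK1, of which ZBP1 senses Z-form nucleic acids and PML is itself induced by interferon. For MX1 the nearest genes included HM13 (0.916), EFHD2, LOC105602911 and ZBP1. IFI6 was nearest to SERTAD1 (0.959), TRIM26 (0.955), FAM234A, EFHD2 and NAPRT, and RSAD2 to CTBP2 (0.938), IER3 (0.937), LOC114110475, RNF167 and COPZ1. For ISG15, RSAD2 and IRF7 even the closest of the other 7, at 0.780 (IFI6), 0.815 (MX2) and 0.845 (IFI6), ranked only 158, 227 and 446.5 among 13576 genes. The genes nearest to ISG15 were GTPBP1 (0.935), CCND3 (0.929), FOSB (0.925), DUSP1 (0.922) and ZFP36 (0.913), of which FOSB, DUSP1 and ZFP36 are immediate early genes that many stimuli switch on. The mean of the 8 genes was nearest to LGALS3BP and ZBP1 (both 0.958), SEMA7A, STAT2 (0.953) and UBE2L6 (0.952), the last the conjugating enzyme that passes ISG15 to its targets.

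The rest of the interferon pathway was taken from lists of 69 other genes, of which 58 had a row and 52 passed the filter. None of the 52 was called between diet lines. With the leukocyte score 30 of the 52 rose (11.2% of all genes did) and 0 fell, with the squamous score 23 rose (29.3% of all genes) and 0 fell, and with the spermatid score 44 fell (34% of all genes) and 0 rose. The median rho of the 52 with the mean of the 8 genes was 0.692, against 0.0226 over all genes tested. Interferon gamma itself, IFNG, had 1 to 8 counts in every library and did not pass the filter, and CXCL10, a chemokine induced by interferon gamma, had 1 to 18 counts.

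In the list of ligands and receptors the 6 genes tested were all receptor chains, since IFNG, the only ligand listed, did not pass the filter. Of these 6, 5 rose with the leukocyte score and 1 with the squamous score. The latter was IFNLR1, the specific chain of the type III interferon receptor, which rose by 1.08 per SD of the squamous score (adjusted p = 1.01e-05), was at 0.09 with the leukocyte score (adjusted p = 0.885), and had the highest rho of its list with the mean of the 8 genes (0.744). IFNAR1, a chain of the type I receptor, had the lowest (0.480), and rose by 0.97 per SD of the leukocyte score (adjusted p = 5.6e-06), with 0.04 for the squamous score (adjusted p = 0.924). In signal transduction 9 of 11 rose with leukocytes and 4 with squamous epithelium, the latter, like the 1 of 6 receptors, near the 29.3% of all genes that rose with that score. STAT2 (rho = 0.953 with the mean) rose with both, by 0.76 (adjusted p = 0.00951) and 0.81 (adjusted p = 0.00671), and IRF8, a factor of myeloid and B cells, was lowest (rho = 0.177).

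Of 10 nucleic acid sensors, 3 rose with leukocytes and 5 with squamous epithelium. ZBP1 was closest to the 8 genes and rose by 0.89 per SD of the squamous score (adjusted p = 0.00938), and MAVS, the mitochondrial adaptor of the RNA sensors, was farthest (rho = −0.0451, slope −0.0010 with the squamous score, adjusted p = 0.995). Of 18 other antiviral effectors, 9 rose with leukocytes and 11 with squamous epithelium. UBE2L6 was closest and rose by 1.23 with the squamous score (adjusted p = 0.000465) and by 0.81 with the leukocyte score (adjusted p = 0.0336), and IFIT5, the neighbour of the other IFIT genes, was farthest (rho = −0.0256). Of 4 genes of interferon gamma response and antigen processing, 2 rose with leukocytes and 1, near the share of all genes, with squamous epithelium, with the peptide transporter TAP1 at a rho of 0.914 with the mean of the 8 genes and CIITA, the master regulator of MHC class II, at −0.426. Of 3 feedback inhibitors, 2 rose with leukocytes and 1, again near the share of all genes, with squamous epithelium. USP18, which removes ISG15 from proteins and damps the type I receptor, was closest (0.893), and SOCS1 was farthest (0.508) and rose by 0.81 with the squamous score (adjusted p = 0.000193).

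The libraries that stood apart carried part of these values. Without rams SpermRNA382T and SpermRNA485C, in which all 8 genes were low, 34 of the 52 relations passed instead of 43, and IRF7 with IFIT2 was at −0.04. The rho of IFIT2 with the leukocyte score was then 0.882 and that of IRF7 with the squamous score 0.874, while with the leukocyte score ISG15 (rho = 0.414) and RSAD2 (rho = 0.364) no longer passed, nor did ISG15 with the squamous score (rho = 0.271) or IRF7 with the spermatid score (rho = −0.507). The remaining losses were between members, MX1 and MX2 with IFIT2, ISG15 and RSAD2 with IRF7, and IFI6 with IFIT3, at rho from 0.385 to 0.451. In the fits across all genes RSAD2 then passed with neither the leukocyte score (0.63, adjusted p = 0.0578) nor the squamous score (0.28, adjusted p = 0.426). The slopes with the squamous score were 1.01 for MX1, 0.83 for MX2 and 0.86 for IRF7, against 1.92, 1.28 and 1.39 with every ram, and each still passed. Each slope is per SD of the score among the rams fitted, and the 2 rams left out had the lowest squamous scores. The slopes with and without them are thus in different units, and their sizes cannot be compared. Without rams SpermRNA350C and SpermRNA426T, which were highest for ISG15 and RSAD2, 43 passed. With the squamous score 7 of the 8 genes then rose instead of 5, ISG15 (1.43, adjusted p = 0.0211) and IFIT3 (0.78, adjusted p = 0.0208) among them. Over all genes 7901 were then called in either direction with that score, against 7626 with every ram. With the leukocyte score RSAD2 was at 0.34 (adjusted p = 0.526) and no longer passed.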

How the data were processed

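RNA-seq libraries of 20 F2 rams were analysed, and the bisulfite data of the series were not used here. The authors used Trimmomatic for trimming and STAR for alignment to Oar_rambouillet_v1.0, and deposited raw counts per gene, without normalization. Versions and the strand setting are not given in the sources used here, so sense and antisense reads of overlapping genes cannot be told apart. Totals of 805831 to 13137757 counts per library set the counting precision.

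Genes reaching 15 counts in over 10 libraries were kept (13577 of 28525) and scaled with TMM. The paper gives the same filter and reports more genes kept than were found here. The reason for this gap was not tested. Diet lines and scores were fitted with edgeR 4.0.16 (quasi-likelihood test, Benjamini-Hochberg adjustment over all 13577 genes, threshold 0.05) in R 4.3.3. DESeq2 1.42.0 was an alternative. Standard errors and 95% intervals were computed from the F statistics. Scores are means of log2(CPM + 1) over markers, scaled to an SD of 1 over the rams of each fit. Slopes from different sets of rams are thus not in the same unit. On simulated counts the diet fit recovered 115 of 200 genes changed 4-fold (57.5%), with 1 false call, and the squamous score fit 117 of 200 genes changed 2-fold per SD (58.5%), with 7 false calls. Correlations used two-sided permutation tests with 100000 resamples and adjustment over all relations (NumPy 2.4.6). IFITM3, USP18, KRT13, KRT14 and DSC3 were matched by gene ID. The 8 genes and all lists were chosen with earlier results of these data known. The text names the 8 genes, the 5 other genes with the highest Spearman rho to each and to their mean, and per pathway list the genes with the highest and lowest rho to that mean. Of the genes this rule names, 1 is not reported here. CXCL10 and IFNG were added for their low counts. The ratios, the fits without TMM, the neutrophil, macrophage, lymphocyte and simple epithelium scores and the fits without pairs of rams were chosen after the data were seen.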

Additional observations from a re-analysis of the deposited data

Results flagged for a closer look

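In groups of 10 rams on the log2 scale, 5 of the 22 sets of values examined (8 genes and 3 scores in each line) had a lowest ram farther from the next than Dixon's 95% critical value for that number allows. By chance about 1 in 20 such sets would be. In the methionine line, ram SpermRNA382T was the lowest for MX1 (gap over range 0.605), MX2 (0.509), ISG15 (0.478) and IRF7 (0.573). These 4 are values of 1 library, which also had the lowest leukocyte and squamous scores of its line and the highest spermatid score. In the control line, ram SpermRNA485C was lowest in the squamous score (0.486). Without these 2 rams the rho of IRF7 with the squamous score was 0.874 and that of IFIT2 with the leukocyte score 0.882. Why these libraries differ was not tested.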

How the results depend on the processing

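No gene was called between diet lines under any alternative run, and no count of calls for the diet moved. The differences between lines reversed for ISG15 (0.21), IFI6 (0.14) and RSAD2 (0.010) with library size alone, for IRF7 without the filter (−0.032), for ISG15 with the composition scores as covariates (0.042), and for RSAD2 (0.11) and IFIT2 (0.35) without rams SpermRNA350C and SpermRNA426T. The DESeq2 test put ISG15 at −1.69 against −0.20 in edgeR, and the block on grandsire pairs at −0.74. With 1 ram left out in turn they ran from −0.24 to 0.41 for IRF7, −1.62 to 0.70 for ISG15, −0.68 to 0.47 for RSAD2, −1.11 to 0.58 for IFIT2 and −0.88 to 0.21 for IFI6. Counts summed per F0 grandsire and a block for pairs of F0 rams with consecutive numbers, which may be the unnamed twins, changed no call for these genes. The labels name no twins and share no replicate numbers between the lines, so this block rests on an inferred pairing. With library size alone the leukocyte score called 1004 genes (3495 with TMM), with slopes of −0.019 for IFI6 and −0.023 for IRF7, and the squamous score 187 genes and 1 of the 8. The spermatid score called 9070 genes (8156 with TMM) and 3 of the 8. With the 3 scores and diet in 1 fit the calls were 1107, 789 and 364 of all genes, 2 of the 8 with the squamous score and 0 with the spermatid score, and IFIT2 (−0.32) and IFIT3 (−0.24) reversed with the squamous score, as did MX1 (0.29), ISG15 (0.80) and IRF7 (0.47) with the spermatid score. Without rams SpermRNA382T and SpermRNA485C the calls were 1278, 4720 and 4827, and IFI6 (−0.23) and IRF7 (−0.34) reversed with the leukocyte score, ISG15 (−0.39) and IFIT2 (−0.39) with the squamous score, and the rho of IRF7 with the leukocyte score (−0.137) and with IFIT2 (−0.040). With 1 ram left out, the slopes with the leukocyte score ran from −0.077 to 0.39 for IFI6 and −0.17 to 0.26 for IRF7, and those with the squamous score from −0.040 to 1.34 for ISG15 and −0.0062 to 0.83 for IFIT2. Within the methionine line 9 of the 52 correlations passed by rho and 35 by r (30 and 36 in the control line), with 10 rams in each; the cause of each change was not tested. The comparison with methylation was not run, since no gene positions on the build of the files were at hand.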
